A study of Drosophila melanogaster with 44 samples.

Results

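In ovaries of flies without Mod(mdg4)-N, 31 genes were measured at a strongly lower level than in wild-type ovaries. They were the genes whose lowest of 3 wild-type TPM values (RSEM's abundance of a gene's transcripts, scaled for gene length and library depth) was at least 1 and at least 2 times the highest of 3 mutant values. Of 17807 genes listed, 7325 had a lowest wild-type TPM of at least 1, and 37 of them met the whole rule. Long non-coding and antisense RNAs, ribosomal protein genes, eggshell and yolk genes and Hsc70-2 were then left out by symbol, which removed 6 genes (4 lncRNAs, RpL15 and Hsc70-2) and left 31 of 7080 eligible genes. Of the 31, 30 were annotated as protein-coding and CR44906 as a pseudogene. Since the genes were chosen by these ovary TPM values, the difference between mutant and wild-type ovary is given as a description, without a test. For comparison, the rule turned round, with the groups exchanged, found 140 genes higher in the mutant.

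The libraries were poly(A)+ mRNA-seq of whole ovaries, 3 from wild-type females (genotype y1 w1118) and 3 from Mod(mdg4)-N mutant females (labelled y1 w1118 too, and homozygous for the allele Mod(mdg4) RN1-2), all kept at 25 °C. RN1-2 is a CRISPR-Cas9 deletion that shifts the reading frame in the exon that only variant N uses, and a single mutant line was sequenced, so that an effect of the lost protein and a difference in the rest of the genome between the stocks cannot be told apart. A further 6 libraries came from ovarian somatic cells (OSCs), a cultured line of follicle-cell origin with no germ cells, 2 each after siRNA knockdown (KD) of EGFP as control, of variant N (Mod(mdg4)-N KD) or of the part common to the variants (Mod(mdg4)-All KD). Ages of the flies are not given in the labels used here, and nothing states that the replicates were separate collections, so the spread between them may be partly technical.

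Mod(mdg4) is a family of chromatin proteins made from a single locus on chromosome 3R. All variants share a BTB domain, which lets such proteins bind one another, and differ in their last part, and some variants act in insulators, the DNA elements that separate neighbouring regulatory domains. An ovary is built of germ cells (the oocyte and its nurse cells) within a layer of somatic follicle cells, held in a muscle sheath, so a whole-ovary level mixes them all. In such bulk samples, fewer cells of a type and less RNA per cell cannot be told apart.

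Total counts per library were between 13728168 and 20244538, and a count of 3, taken as the detection limit, equalled 0.148 to 0.219 CPM (a count divided by the library's total and rescaled). The mutation changes the reading frame and not the whole gene, and mod(mdg4) RNA as a whole overlapped between the groups (528, 627 and 792 TPM in wild type and 359, 520 and 625 in the mutant). In OSC, mod(mdg4) was at 478 and 448 TPM after EGFP KD, 434 and 403 after Mod(mdg4)-N KD and 62.2 and 73.0 after Mod(mdg4)-All KD. These totals do not resolve variant N. The authors report that Mod(mdg4)-N KD depleted it, but how much of it remained was not measured here. The germ-line gene osk stood between 657 and 937 TPM in every ovary library and at 0.12 and 0.23 TPM in the EGFP KD libraries, where the somatic gene tj was at 134 and 124 TPM. Wild-type replicate 2 stood apart in immune genes, whose summed TPM was 1280 there and between 110 and 142 in the mutant.

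The 31 genes together made up 762 to 876 TPM in wild-type ovary and 130 to 166 TPM in the mutant. Their levels in wild type reached from a mean of 1.31 TPM to 127 TPM, with 2 genes over 100 TPM, 14 from 10 to 100 TPM and 15 under 10 TPM. The median was 11.4 TPM, against 41.6 TPM over the 7080 eligible genes. For 11 of the genes the lowest wild-type value was 2 to under 3 times the highest mutant value, for 9 it was 3 to under 5 times, for 4 it was 5 to under 10 times, and 7 stood at 10 times or more, counting a mutant value under 0.1 TPM as 0.1. Their spread among wild-type libraries was wide as well: in 8 of the 31 (25.8%) the highest wild-type library was more than 2 times the lowest, against 6.77% of eligible genes. The eligible genes were not matched to the 31 for level, so the part of low counts in this spread was not tested.

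**Figure D1:**
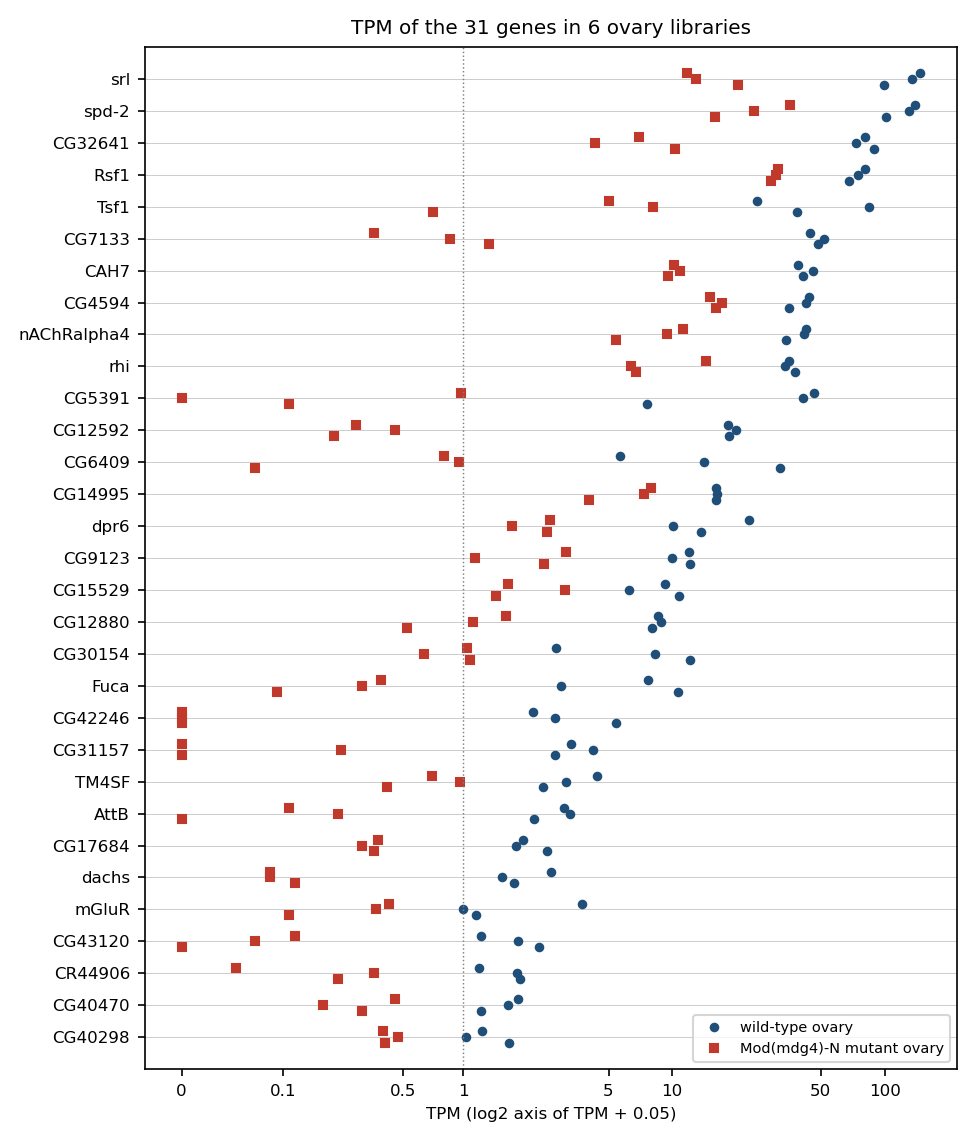
TPM of the 31 genes in each of the 6 ovary libraries, with 1 point per library (circles, 3 wild-type; squares, 3 mutant), on a log2 axis of TPM plus 0.05; genes are ordered by mean wild-type TPM, and the dotted line marks 1 TPM. All circles of a gene lie to the right of its squares, as the rule requires, and among genes with reads in the mutant the ratio of means is largest for CG5391, at 87.7.

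The genes highest in wild-type ovary included a nuclear coactivator, a centrosome protein and a splicing factor. srl (spargel, FBgn0037248; 3R, 4422483 to 4429335), the fly member of the PGC-1 family of transcriptional coactivators that control mitochondrial genes and growth, was at 99.5, 135 and 147 TPM in wild type and 20.3, 12.9 and 11.8 TPM in the mutant. The wild-type mean was 8.45 times the mutant mean. spd-2 (FBgn0027500; 3L, 16591207 to 16595014), a scaffold protein of the material around centrioles, was at 101, 130 and 138 TPM in wild type and 15.9, 24.2 and 35.9 TPM in the mutant, a ratio of means of 4.86. Rsf1 (FBgn0011305; 2L, 10261795 to 10263554), an RNA-binding repressor of splicing, had one of the smallest ratios, 2.43, but very even values, 67.9, 74.6 and 80.5 TPM against 29.3, 30.9 and 31.5 TPM. All 3 of these genes were also well expressed in OSC, as given further on.

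rhi (rhino, FBgn0004400; 2R, 17628491 to 17633516), a heterochromatin protein 1 relative that binds piRNA source loci in the germ line and lets them be transcribed, was at 37.9, 33.8 and 35.6 TPM in wild type and at 6.72, 6.42 and 14.5 TPM in the mutant. The ratio of means was 3.88, and mutant replicate 3 was more than 2 times as high as the other mutant libraries. Among genes for proteins that work with rhi at these loci, del (deadlock) was at 55.0 to 72.0 TPM in wild type and 104 to 111 TPM in the mutant, and moon (moonshiner) at 37.9 to 62.5 and 79.0 to 86.4 TPM, both without overlap. The groups overlapped for cuff (cutoff), at 6.49 to 9.26 and 8.91 to 9.91 TPM, and for CtBP, at 163 to 210 and 140 to 194 TPM. Oxp (oxpecker), which lies 280 bases from rhi on the same strand, was at 83.6, 73.0 and 72.6 TPM against 37.7, 37.0 and 67.1 TPM, so that its mutant replicate 3, too, stood above the others. In OSC, rhi was near 1 TPM (0.97 and 1.21 after EGFP KD).

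nAChRalpha4 (FBgn0266347; 3L, 23206669 to 23287448), a subunit of the nicotinic acetylcholine receptor, was at 34.2, 41.9 and 42.5 TPM in wild type and 5.40, 9.50 and 11.3 TPM in the mutant. dpr6, an immunoglobulin-domain surface protein of neurons, was at 13.7, 10.1 and 23.1 TPM against 2.55, 1.72 and 2.62 TPM. mGluR (4, 936819 to 949441), a metabotropic glutamate receptor and the only one of the 31 on chromosome 4, lay at the lower bound of the rule with 1.15, 1.00 and 3.73 TPM against 0.11, 0.36 and 0.42 TPM. The tetraspanin gene TM4SF was at 2.44, 3.13 and 4.41 TPM against 0.41, 0.96 and 0.70 TPM. dachs (2L, 8466817 to 8488671), an unconventional myosin of the Fat signalling pathway, was at 1.76, 1.55 and 2.67 TPM against 0.12, 0.08 and 0.08 TPM.

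Enzymes and secreted proteins followed. CAH7 (FBgn0037788; 3R, 10112237 to 10120081), a member of the carbonic anhydrase family, was steady within each group, with 41.5, 46.1 and 39.3 TPM against 9.54, 10.9 and 10.2 TPM and a ratio of means of 4.14. Fuca (3L, 11518798 to 11522713), an alpha-L-fucosidase that removes fucose from glycoproteins, was at 10.7, 2.96 and 7.69 TPM against 0.09, 0.30 and 0.38 TPM. Its exons are also annotated as the gene CG11714 on the same strand, 3513 bases shared in full, so the split of reads between the 2 identifiers is uncertain, and CG11714 itself was listed at 0.06 to 0.26 TPM in wild type and at 0 in the mutant. Tsf1 (FBgn0022355; X, 18387084 to 18390344), the iron carrier transferrin of the haemolymph, varied most in absolute terms, with 38.8, 84.5 and 25.1 TPM in wild type and 0.71, 8.12 and 5.04 TPM in the mutant. Its highest library was wild-type replicate 2, the one with the high immune genes. AttB (2R, 14749223 to 14750165), an antibacterial peptide of the attacin family, was at 2.21, 3.28 and 3.08 TPM against 0, 0.22 and 0.11 TPM, with 3 counts in all behind the mutant values.

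The widest gaps belonged to genes known only by number. CG12592 (FBgn0037811; 3R, 10338342 to 10340872) was at 18.4, 20.0 and 18.4 TPM in wild type and 0.21, 0.45 and 0.28 TPM in the mutant, so that its lowest wild-type library was 40.8 times its highest mutant library. CG7133 (FBgn0037150; 3L, 22073068 to 22074523) was at 48.6, 51.7 and 44.7 TPM against 1.33, 0.86 and 0.35 TPM, and this lowest-to-highest ratio was 33.6. These 2 genes were as even among wild-type libraries as they were far from the mutant. CG5391 (FBgn0038943; 3R, 22333088 to 22334150) had the largest ratio of means among genes with reads in the mutant, 87.7, but uneven values, 7.61, 41.3 and 46.6 TPM against 0.11, 0 and 0.98 TPM. CG6409 (3L, 10880699 to 10882386) was uneven in the other direction, with 32.1, 14.1 and 5.69 TPM against 0.06, 0.95 and 0.80 TPM. The numbered genes at low levels rested on few reads: CG42246 had 30 counts over the 3 wild-type libraries and 0 in the mutant (5.44, 2.77 and 2.17 TPM against 0), which is at least 3.75-fold lower when 3 counts per mutant library are taken as the limit.
Others of this kind were CG31157, with 2.79, 4.24 and 3.32 TPM against 0, 0.23 and 0 TPM, and CG43120, with 2.34, 1.85 and 1.22 TPM against 0, 0.06 and 0.12 TPM. CG4594 was at 35.6, 42.8 and 44.0 TPM against 16.1, 17.1 and 15.1 TPM.

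For a further 7 genes, as for the numbered genes above, no role is given here. CG14995 had the most even wild-type values of all, 16.1, 16.2 and 16.0 TPM, against 4.02, 7.35 and 7.93 TPM. CG15529 was at 10.7, 6.22 and 9.20 TPM against 1.45, 3.09 and 1.66 TPM, and CG12880 at 8.03, 8.86 and 8.53 TPM against 0.52, 1.12 and 1.62 TPM. These 2 genes overlap a gene on the opposite strand, CG11498 over 523 of the 1393 exonic bases of CG15529 and CG31055 over 304 of the 1894 of CG12880, and reads of such partners could be counted on either, although both partners were under 1 TPM in every ovary library. The other 4 were under 3 TPM in every wild-type library and under 0.5 TPM in every mutant library. They were CG17684 (2.55, 1.80 and 1.95 TPM against 0.35, 0.30 and 0.37 TPM), CR44906 (1.89, 1.83 and 1.20 TPM against 0.22, 0.35 and 0.04 TPM), CG40470 (1.22, 1.66 and 1.84 TPM against 0.30, 0.18 and 0.45 TPM) and CG40298 (1.67, 1.03 and 1.23 TPM against 0.40, 0.47 and 0.39 TPM).

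The threshold cut through a continuous range. Just inside stood CG15529, with a lowest wild-type value of 6.22 TPM and a highest mutant value of 3.09 TPM, CG14995 (16.0 and 7.93 TPM) and CG4594 (35.6 and 17.1 TPM). Just outside stood CG2993 (8.00 and 4.15 TPM), CG14410 (6.36 and 3.36 TPM) and Wnt5, a secreted signalling protein (7.42 and 3.99 TPM). With a fold of 1.5 in place of 2 the rule found 67 genes and with a fold of 3 it found 20. A single library had a large part in the number: without wild-type replicate 3 it was 134, and without mutant replicate 3 it was 48. Under this rule, leaving out a library can only keep or raise the number, and all 31 genes stayed in.

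In the edgeR fit over all genes with enough counts in ovary, 28 of the 31 were included. Over all 7934 genes tested, 6.42% were called lower in the mutant (Benjamini-Hochberg adjusted p under 0.05). The rule used the same contrast, so calls of the chosen genes would be no test of them and are not counted here. The median log2 fold change of the 28 was -2.87, within a range of -6.44 to -1.29, and the median over all tested genes was -0.01. CG42246, CG30154 and CG40298 had too few counts for the fit. The fit had no blocking term for replicate number. With such a term, 1107 of all genes were called lower in the mutant, in place of 509.

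The genes were spread over all major chromosome arms, with 4 on X, 4 on 2L, 5 on 2R, 10 on 3L, 7 on 3R and 1 on chromosome 4. Arm 3L held 32.3% of them and 19.3% of the eligible genes, and arm 3R, which carries mod(mdg4), 22.6% and 24.0%. No pair of them lay within 20 kb. On 3R, CG5391 lay 0.956 Mb from mod(mdg4), and the other 6 lay 6.31 to 16.9 Mb away. Of the eligible genes of the arm, 6.49% lie within 1 Mb of mod(mdg4). Some long genes lay toward the centromeric ends of their arms: CG17684 (2R, 1866080 to 2262115), CG40470 (3L, 23839860 to 23986410) and nAChRalpha4. However, dpr6 (3L, 9974651 to 10139360), which is longer than CG40470, did not, and the short CG40298 (3L, 23726829 to 23727989) did. The share of eligible genes in such positions was not taken. More than 20% of the sequence was soft-masked (marked as repetitive in the genome file) in 6 of the 31 genes (19.4%) and in 7.40% of the eligible genes. The genes had a median span of 2531 bases and a median coding length of 1121 bases, against 2848 and 1383 bases over the eligible genes, and 4 of the 31 had no intron.

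Close neighbours were examined next. Within 3 kb of 5 of the 31 genes (16.1%) lay another gene whose groups were also separated by at least 2 times, against 266 of 7010 other eligible genes (3.79%). For 3 of the 5 this neighbour was higher in the mutant and for 2 it was lower, of which lncRNA:CR43995 rested on 13 counts in wild type.
Apl (apollo), which is transcribed away from spd-2 across 166 bases, was at 0.97, 0.57 and 2.43 TPM in wild type and at 38.6, 36.1 and 39.7 TPM in the mutant. Thus the genes on either side of this short interval differed in opposite directions. The gene knk (knickkopf, needed for chitin organisation in the cuticle), 2283 bases from the end of CAH7, was at 0.25, 0.31 and 0.32 TPM against 10.1, 5.80 and 4.48 TPM. It is transcribed toward CAH7 and is not the next gene. Between them lie gammaSnap2 (means of 0.06 TPM in wild type and 0.11 TPM in the mutant) and ATPsynepsilonL (0.34 and 0.49 TPM), neither separated by the rule. CG31525, which lies within srl on the opposite strand, was at 0.93, 0.58 and 0.47 TPM against 5.86, 3.16 and 2.64 TPM. The other gene beside spd-2, tra (transformer), 156 bases from its end, was at 20.8 to 22.6 TPM in wild type and 25.0 to 26.7 TPM in the mutant.

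In the remaining 2 cases the neighbour was lower too. Hsc70-2, a heat shock cognate gene left out by symbol, ends 342 bases before CG31157 on the same strand and was at 21.1, 14.2 and 16.4 TPM in wild type and 0.13, 0.35 and 0.32 TPM in the mutant. lncRNA:CR43995, 447 bases from the end of CG7133, was at 9.51, 5.51 and 2.49 TPM in wild type and at 0 in all 3 mutant libraries. These values rested on 13 counts over the 3 wild-type libraries. With 3 counts per mutant library taken as the limit, the RNA was at least 1.63-fold lower, which does not reach 2-fold. On the other side of CG7133, CG7130 was at 22.7, 25.7 and 26.0 TPM against 8.08, 8.52 and 14.0 TPM, short of the 2-fold gap. Bbd (bombardier), 310 bases from CG30154, was at 53.0, 113 and 1.08 TPM against 5.78, 8.26 and 2.70 TPM, so its groups overlapped, and CG30154 itself was at 12.1, 8.28 and 2.82 TPM against 1.08, 0.64 and 1.04 TPM. In both genes wild-type replicate 3 was the lowest wild-type library.

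The sequences of these intervals are shown because each lies between 2 genes that differed between the groups, in opposite directions at spd-2 and Apl and in the same direction at Hsc70-2 and CG31157. They were read from the RefSeq genome, Release 6 (dm6), plus strand, with 3 motifs in capitals where they occur on either strand, namely TATAAA (the TATA box), CACGTG (the E-box) and GAGAG (the GAGA motif). The interval of spd-2 and Apl (chr3L:16595015-16595180, 166 bases) held none of the 3, and the last 300 of the 342 bases before CG31157 (chr3R:13047431-13047730) held a single GAGAG, on the minus strand.
spd-2/Apl: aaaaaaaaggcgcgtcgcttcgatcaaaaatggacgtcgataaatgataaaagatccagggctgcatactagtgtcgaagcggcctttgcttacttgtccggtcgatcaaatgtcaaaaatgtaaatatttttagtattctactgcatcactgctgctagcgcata
Hsc70-2/CG31157: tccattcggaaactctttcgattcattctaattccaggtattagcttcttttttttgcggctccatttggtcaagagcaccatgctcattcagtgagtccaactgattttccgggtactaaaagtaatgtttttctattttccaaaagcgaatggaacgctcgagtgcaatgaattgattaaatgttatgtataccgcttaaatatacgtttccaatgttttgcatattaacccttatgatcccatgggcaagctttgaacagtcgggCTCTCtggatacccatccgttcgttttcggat
In windows from 250 bases before to 50 after the annotated start, TATAAA was found on either strand in 15 of the 31 genes (48.4%) and in 45.8% of 7027 eligible genes, GAGAG in 10 (32.3%) and 27.0%, and CACGTG in 3 (9.68%) and 4.71%. The letters alone do not show that a factor binds there.

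A further feature was shared sequence. Of the 31 genes, 6 (19.4%) had a transcript that aligned over at least 100 bases at 90% identity or more with a gene elsewhere in the genome, against 3.00% of the eligible genes, and reads of such pairs can be counted on either. CG32641 and CG32640, both on X, had the same 396-base coding sequence, with 0 differing bases. Of the 466 bases of the CG32641 transcript, 465 aligned with CG32640, at 99.6% identity. So little of this transcript sets it apart, and the split of reads between the 2 genes is uncertain. CG32641 was at 89.1, 73.6 and 81.1 TPM in wild type and 10.3, 4.33 and 7.00 TPM in the mutant, and CG32640 at 81.3, 80.7 and 96.6 TPM and 100.3, 97.6 and 85.2 TPM. As a sum the pair was at 154 to 178 TPM in wild type, 1.65 times the mutant by means. The first 300 bases of the coding sequence of each are given, to show that only the flanking parts of the transcripts tell them apart (CG32641, chrX:13184575-13184874; CG32640, chrX:13178102-13178401; plus strand, RefSeq genome, Release 6).
CG32641: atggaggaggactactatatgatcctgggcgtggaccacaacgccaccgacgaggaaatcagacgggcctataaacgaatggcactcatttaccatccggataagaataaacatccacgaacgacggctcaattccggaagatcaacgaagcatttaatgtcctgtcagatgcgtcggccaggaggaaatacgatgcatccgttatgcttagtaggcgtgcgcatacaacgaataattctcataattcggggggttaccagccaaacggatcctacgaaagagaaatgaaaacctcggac
CG32640: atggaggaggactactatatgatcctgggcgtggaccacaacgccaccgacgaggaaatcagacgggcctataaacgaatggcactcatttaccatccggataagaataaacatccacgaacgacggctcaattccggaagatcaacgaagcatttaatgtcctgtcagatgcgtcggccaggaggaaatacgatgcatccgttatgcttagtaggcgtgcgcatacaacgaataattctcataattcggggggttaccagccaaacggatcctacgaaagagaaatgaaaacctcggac
CG9123 aligned over 1618 bases with CG12608 at 94.7% identity, and was at 12.1, 9.99 and 12.0 TPM against 2.47, 1.14 and 3.15 TPM, while CG12608 was at 48.3, 48.5 and 55.0 TPM against 76.3, 75.2 and 68.7 TPM. CG12592 shared 1202 bases at 99.7% with its neighbour sle (slender lobes), 76 bases away, which was at 104, 129 and 145 TPM against 145, 148 and 177 TPM. In these 2 pairs the similar gene was higher in the mutant libraries, and the summed wild-type mean was 0.819 and 0.921 times the summed mutant mean. For spd-2, 989 bases matched CR18217 at 97.9%, and CR18217 was at 19.1, 11.3 and 16.1 TPM against 21.6, 24.7 and 28.7 TPM, yet the sum of both was still 2.76 times higher in wild type. AttB matched AttA (93.8% identity). mGluR matched CR43170 over 306 bases, only 5.13% of its transcript. CR43170 was at 0 in every wild-type library and at 0 to 0.2 TPM in the mutant, and the sum of both was 4.56 times higher in wild type by means. When each gene was summed with the similar gene of its longest alignment, none of the 6 met the rule any more. This leaves 25 genes, a count added after the data were seen. For CG32641, CG9123, CG12592 and AttB the similar gene alone was too high in the mutant for any sum to meet the rule, so the outcome was fixed in advance. CG12592 summed with its other similar gene, CG18545, still met the rule, with a lowest wild-type sum 28.7 times the highest mutant sum. The mGluR sum fell short, at 1.79 times, through 0.2 TPM of CR43170 in the mutant. Whether reads were moved within these pairs was not tested.

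**Figure D2:**
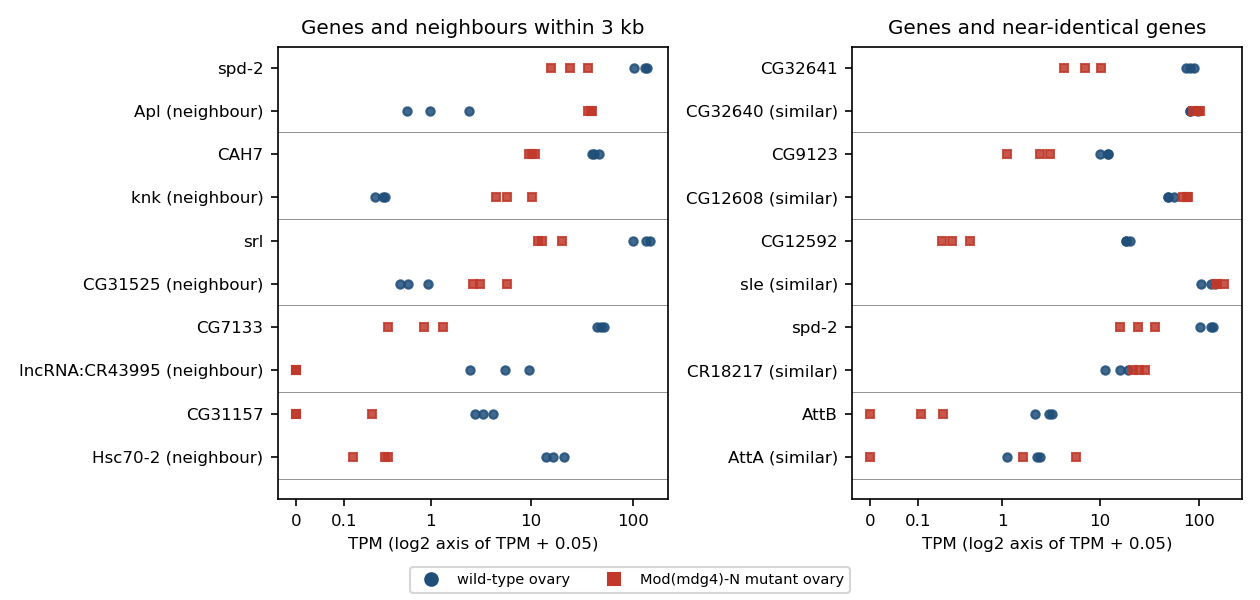
TPM of each ovary library (circles, 3 wild-type; squares, 3 mutant) on a log2 axis of TPM plus 0.05, on the left for 5 of the genes and a neighbour within 3 kb, on the right for 5 of the genes and a near-identical gene. Apl, knk and CG31525 lie to the right in the mutant while spd-2, CAH7 and srl lie to the left, and CG32640, CG12608 and sle show none of the decrease of the gene above them.

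Fixed lists of markers and gene families were searched for the 31 genes. Of 18 lists (germ line, follicle cells, late follicle cells and ovulation, sheath muscle, haemocytes, fat body, reproductive tract, trachea, testis, heat shock, eggshell and yolk, ribosomal proteins, cytochrome P450, glutathione transferase, chitin and cuticle, serine proteases and inhibitors, immune and histone), the immune list alone held one, AttB. The ribosomal list could hold none and the eggshell and yolk list hardly any, since the rule leaves such symbols out. Of the 33 genes of the immune list, AttB was the only one lower in the mutant by the rule. Summed eggshell and yolk TPM was 19008 to 36036 in wild type and 50721 to 62800 in the mutant, summed ribosomal protein TPM 313166 to 367956 and 227525 to 268211, and the summed late follicle and ovulation genes 265 to 297 and 122 to 240. In the last of these, Ilp8 (a relaxin-like peptide hormone) was at 150 to 193 TPM in wild type and 17.8 to 121 TPM in the mutant, while the other 6 genes summed to 103 to 116 and 104 to 118 TPM, which overlap. The sums were also separate between the groups for the germ line (1044 to 1221 and 1335 to 1453), heat shock (7617 to 8956 and 10004 to 10470) and cytochrome P450 lists (2664 to 3104 and 3379 to 3484), which makes 6 of the 18 lists. A sum follows its highest genes, and single genes could differ in the opposite direction. In the germ line list, osk was at 657 to 804 TPM in wild type and 868 to 937 TPM in the mutant. There bam alone met the rule turned round, at 22.2 to 34.7 and 90.2 to 100.3 TPM. The gene vas went the other way without overlap, at 124 to 139 and 89.2 to 100 TPM. In the heat shock list, the highest gene, Hsc70-4, was at 3219 to 3575 and 5268 to 5365 TPM, and Hsp83 was at 1965 to 2326 and 2799 to 2973 TPM. Hsp26 was lower in the mutant without overlap, at 979 to 1913 and 571 to 820 TPM. The sums of the other 12 lists overlapped, among them the muscle list (93.1 to 193 and 69.3 to 118), the fat body list (1.70 to 29.5 and 1.25 to 5.52) and the testis list (74.1 to 112 and 57.8 to 112), of which 7 of 17 genes were at 0 in every ovary library. The part of such differences in cell make-up in the lower levels of the 31 genes was not tested.

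OSC were the next question, since they show which of the genes are expressed in a cultured line of follicle-cell origin. A gene that is low in this line may still be used in follicle cells of the ovary. Of the 31 genes, 14 (45.2%) reached 1 TPM in both EGFP KD libraries, against 93.2% of the eligible genes, and the median of the mean EGFP KD levels was 0.935 TPM against 31.1 TPM. The 31 genes were lower in wild-type ovary too (median 11.4 TPM against 41.6 TPM), and the eligible genes were not matched to them for level. In all 6 OSC libraries, 10 of the genes were at 10 TPM or more, 14 stayed under 1 TPM, and CG42246 and CG31157 were at 0. For 7 of the genes both EGFP KD values were above every wild-type ovary value (22.6%, against 28.2% of the eligible genes), and for 24 both were below (77.4%, against 52.4%). Fuca stood furthest above, at 196 and 172 TPM, Rsf1 was at 182 and 179 TPM, and CG32641 at 161 and 160 TPM. CG32640, which has the same coding sequence as CG32641, was listed at 0 in all 6 OSC libraries, so the pair as a sum was at 161 and 160 TPM, within its 154 to 178 TPM in wild-type ovary, and no higher level of this sequence in OSC can be read. CG9123 (34.5 and 38.4 TPM) and TM4SF (16.3 and 18.8 TPM) were above their ovary levels too, together with CG14995 and CR44906. In contrast, spd-2 (34.0 and 31.6 TPM) and srl (47.6 and 39.8 TPM) were expressed but lower than in wild-type ovary. nAChRalpha4 was at 2.68 and 3.07 TPM and CAH7 at 0.49 and 0.80 TPM, and Tsf1 (0.07 and 0.08 TPM), dpr6 (0.04 and 0.02 TPM) and CG5391 (0 in both) were at or near 0. TPM of ovary and OSC come from cells with different total RNA, so the levels are set side by side without a test.

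**Figure D3:**
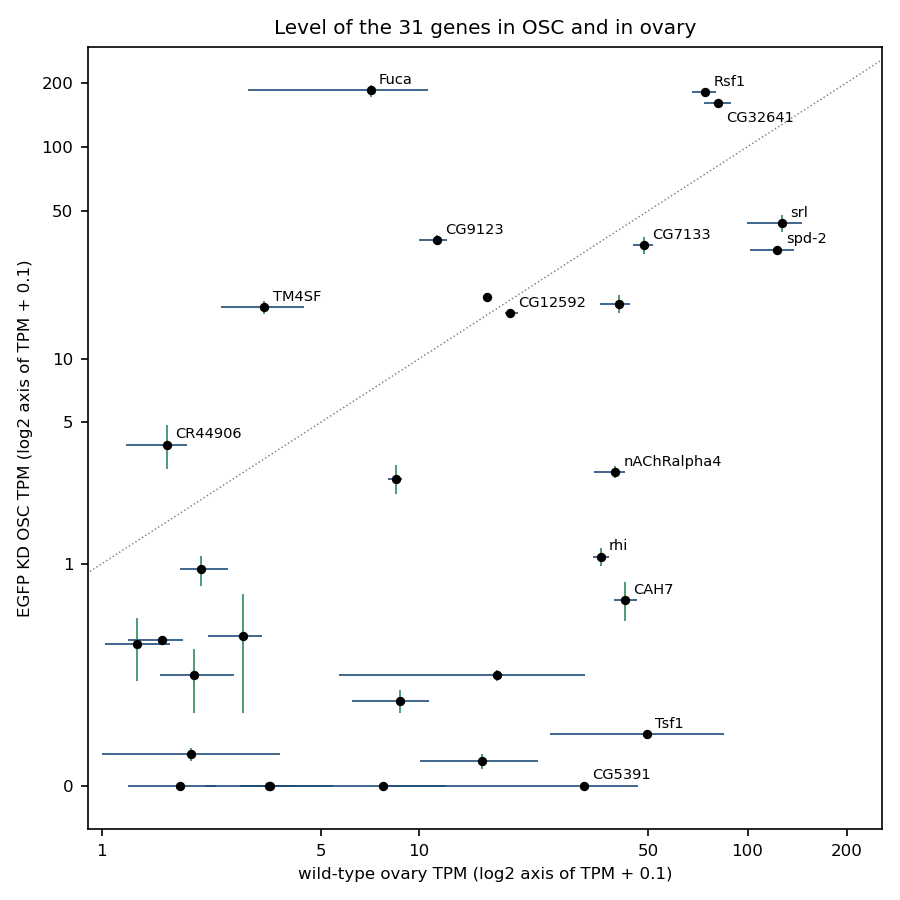
Mean TPM of the 31 genes in wild-type ovary (x axis, 3 libraries, horizontal lines from lowest to highest) and in EGFP KD OSC (y axis, 2 libraries, vertical lines from lowest to highest), on log2 axes of TPM plus 0.1; the dotted line marks equal levels. Fuca and Rsf1 lie above the line at over 150 TPM in OSC, as does CG32641, whose sum with CG32640, at 0 in OSC, was within its range in wild-type ovary, whereas rhi, CAH7, Tsf1 and CG5391 lie far below it.

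The OSC knockdowns were not used to choose the genes and could therefore be tested. After Mod(mdg4)-N KD, none of the genes passed the test. Of the 31, 17 had enough counts for edgeR's quasi-likelihood test, and 0 were called (Benjamini-Hochberg adjusted p under 0.05 over 8106 genes), beside 0.0247% of all genes tested. DESeq2 also called 0, and 1 gene, CG32641, had an unadjusted p under 0.05 (log2 fold change 0.27, adjusted p of 1 by edgeR). The fold changes of the 17 ranged from -0.27 to 0.46 on the log2 scale, with a median of -0.03 and 10 of them below 0.
For rhi the value was -0.04 (SE 0.40), for srl -0.03 (SE 0.12), for spd-2 -0.09 (SE 0.09) and for CG12592 -0.07 (SE 0.09). In each of the 17 genes, the interval of 2 standard errors lay above a 2-fold decrease, although standard errors from 2 libraries a group are themselves uncertain.

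After Mod(mdg4)-All KD, 1 of the 17 genes tested was called by edgeR, beside 1.10% of the 8126 genes tested. This was TM4SF (FBgn0020372; 2R, 23878197 to 23880860), one of the tetraspanins, membrane proteins that gather other proteins at the cell surface. It was at 16.3 and 18.8 TPM after EGFP KD, 15.8 and 13.3 TPM after Mod(mdg4)-N KD and 6.37 and 7.58 TPM after Mod(mdg4)-All KD. Thus both libraries of the last group lay below the other 4. The log2 fold change against EGFP KD was -1.24 (SE 0.13, edgeR adjusted p = 0.012), and the call was lost when EGFP KD replicate 1 (adjusted p = 0.0565) or 2 (adjusted p = 0.0874) was left out. Against Mod(mdg4)-N KD, a comparison in which 1.15% of 8118 genes were called, TM4SF was again the only one of the 17 called, with a log2 fold change of -1.04 (SE 0.11, edgeR adjusted p = 0.0156). This call did not hold when the fit had replicate number as a blocking term (adjusted p = 0.0683), without Mod(mdg4)-N KD replicate 1 (adjusted p = 0.229) or without Mod(mdg4)-N KD replicate 2 (adjusted p = 0.125). After Mod(mdg4)-N KD, TM4SF was at -0.20 (SE 0.11, adjusted p of 1). Both knockdowns share the EGFP KD libraries.

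The other 16 genes did not pass the test after Mod(mdg4)-All KD, and their values went in both directions. The median of all 17 was 0.07 on the log2 scale, with 10 of them above 0. CG40470 had a value of 1.04 (SE 0.39, edgeR adjusted p = 0.345), nAChRalpha4 of 0.58 (SE 0.20, adjusted p = 0.303) and CG32641 of 0.38 (SE 0.13, adjusted p = 0.307). On the other side, CG12880 was at -0.64 (SE 0.31, adjusted p = 0.469), rhi at -0.54 (SE 0.50, adjusted p = 0.705) and srl at -0.23 (SE 0.12, adjusted p = 0.48). For 14 of the 17 the interval of 2 standard errors lay above a 2-fold decrease, the exceptions being TM4SF, rhi and CG12880.

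**Figure D4:**
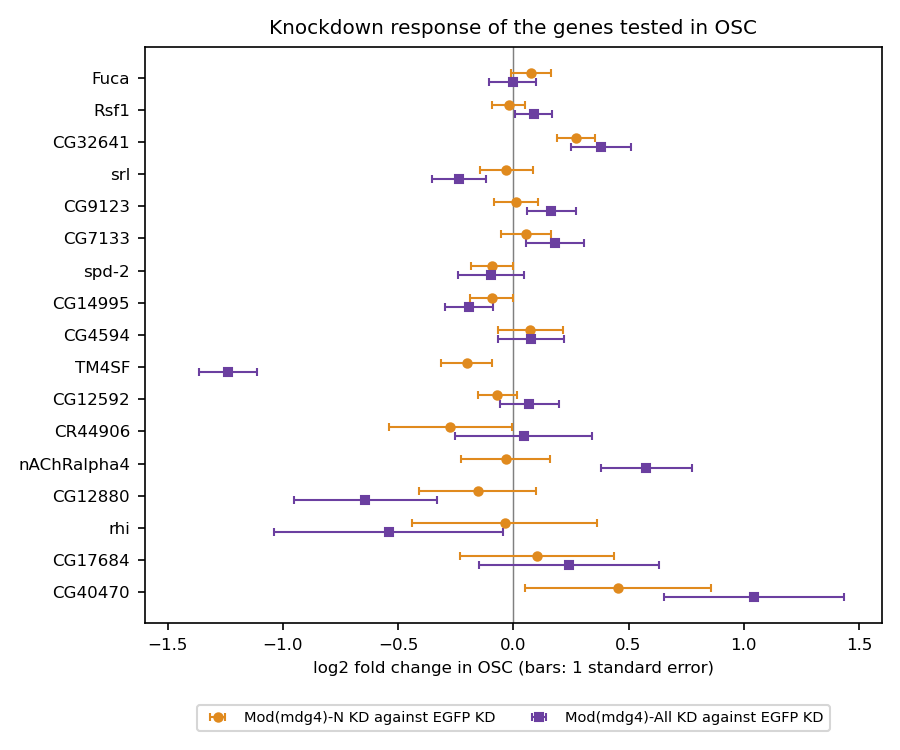
Log2 fold change of the 17 genes tested in OSC after Mod(mdg4)-N KD (circles) and Mod(mdg4)-All KD (squares), each against the same 2 EGFP KD libraries; bars are 1 standard error of the edgeR fit, and genes are ordered by their EGFP KD level. TM4SF after Mod(mdg4)-All KD, at -1.24, is the only value with an adjusted p under 0.05.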

How the data were processed

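The authors used a stranded kit, mapped paired-end poly(A)+ reads with STAR within RSEM to dm6 (versions not given in the sources used here; no strandedness option is among the stated parameters) and deposited a table per library. From each table the expected counts (no normalization by the authors) and the TPM (scaled by the authors' RSEM run to 1 sum per library) were used, and length, effective length and FPKM were not. The ChIP-seq and Micro-C samples were not analysed here. Expected counts were rounded, and RSEM divides reads that map to several genes (15.7% of nonzero expected counts were not whole, within 0.005).

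The genes were chosen by their TPM in ovary, and genes, lists and tests were chosen with earlier results of these data known. Named were the 10 genes with the largest ratio of lowest wild-type to highest mutant TPM, the 10 with the highest median in wild type, the 5 highest in OSC, those called in OSC, the 3 just inside and 3 just outside the threshold, those in a list, and mod(mdg4). Others were named for a known role, a neighbour or a similar gene, after their values were seen.

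Genes with over 1 CPM in at least 3 ovary or 2 OSC libraries were tested with edgeR 4.0.16 (R 4.3.3; TMM, quasi-likelihood F test in its legacy setting, Benjamini-Hochberg adjustment over all genes tested). Standard errors were derived from the fold change and its F statistic. The test was checked on simulated counts. Alternatives were RLE size factors, DESeq2 1.42.0, no filter, a blocking term for replicate number, a single fit of all OSC groups and leaving out each library. Same-numbered ovary libraries deviated together (correlations of 0.283, 0.186 and 0.287), more than those with other numbers (-0.312 to 0.00712). The main fits nevertheless treated all libraries as unpaired, and the blocking term was an alternative only. In OSC, with 2 pairs, the value was 0.247 (EGFP with Mod(mdg4)-N KD), 0.156 (EGFP with Mod(mdg4)-All KD) and -0.212 (both Mod(mdg4) knockdowns), and no source states a pairing. Libraries of a group differed by more than sampling noise (chi-square per degree of freedom of 6.91 to 87.4).

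Symbols came from a table of gene names (98 of 17807 genes had none) and coordinates from Ensembl annotation 115 (BDGP 6.54, Release 6, the same build as dm6), 1-based. Sequence was read from the RefSeq genome of Release 6. The longest transcript of each eligible gene was aligned to all annotated transcripts other than transposons with BLAST+ 2.17.0. Detection limits and standard errors cover no more than counting error and the spread of these libraries.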

Additional observations from a re-analysis of the deposited data

How the results depend on the processing

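The number of genes found by the rule was 31. It was 67 with a fold of 1.5, 20 with a fold of 3 and 18 with a minimum of 5 TPM, and stayed within 1.5 times with a minimum of 0.5 TPM (42), with no exclusion by symbol (37), with TMM or RLE scaled CPM in place of TPM (34 each, of which 28 were among the 31) and after summing similar genes (25, an alternative added after seeing the data). In the sums, the loss of CG32641, CG9123, CG12592 and AttB was fixed by the level of the similar gene alone. Leaving out each ovary library in turn, which can only keep or raise the number, gave 37 to 134 genes. It was 134 without wild-type replicate 3 and 48 without mutant replicate 3. The median log2 fold change in ovary was -2.87, -3.01 without the filter on low counts, which adds 3 genes with few counts, -2.90 with the replicate block, and -2.95 to -2.81 when a library was left out. The number expressed in OSC was 16 at 0.5 TPM and 11 at 5 TPM.

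In OSC, the count of 0 after Mod(mdg4)-N KD was the same under all 9 alternatives. The single call after Mod(mdg4)-All KD ranged from 0 to 1 when a library was left out (log2 fold change of TM4SF of -1.33 to -1.15) and was 0 without EGFP KD replicate 1 or 2. Against Mod(mdg4)-N KD it also ranged from 0 to 1 (-1.12 to -0.96), being 0 without either Mod(mdg4)-N KD library. With the replicate block it was 0 of 17 in that comparison (28 calls over all genes against 93), and 1 in the pairing with crossed numbers, added after seeing the data (257 calls over all genes). The block changed no other call of the genes, with 0 after Mod(mdg4)-N KD and 1 after Mod(mdg4)-All KD. The causes were not tested. With 2 libraries per OSC group, and 14 of the 31 genes too low to test, a modest change of a gene in OSC may have gone undetected, and the genes at 1 to 3 TPM in ovary rest on few reads.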
